A study of Homo sapiens with 6 samples.

Results

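Colony-stimulating factors and epithelial cytokines are the secreted proteins with which keratinocytes recruit, expand and instruct leukocytes and neighbouring skin cells. The 10 genes described here are CSF1, CSF2, CSF3, LIF, IL6, IL11, IL23A, EBI3, IL32 and TSLP. They were picked by symbol out of 27945 genes in the deposited table. The rule itself used no values, but earlier results of these data were known when the genes were chosen. Transcripts were measured in HaCaT cells, immortalised keratinocytes of human skin, labelled as wild-type or MAPK14-null; MAPK14 encodes the kinase p38α. Wild-type and knockout cells received PBS (unstimulated, 1 library of each genotype) or IL-1α in PBS (2 libraries of each genotype) for 4 h. The labels state neither how MAPK14 was edited nor whether the knockout is 1 clone, and they do not say whether replicates were separate cultures, so p-values measure only the spread between these libraries. Levels are in RPKM, reads per kilobase of exon scaled to the mapped reads of the library.

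The colony-stimulating factors M-CSF (CSF1), GM-CSF (CSF2) and G-CSF (CSF3) support macrophages, granulocytes and their precursors. LIF, IL-6 and IL-11 share the signalling receptor chain gp130, encoded by IL6ST, and activate JAK kinases and STAT3. IL23A encodes the p19 subunit of IL-23 and EBI3 the β subunit of IL-27, each of which joins a partner chain in that cytokine. IL-32 is a proinflammatory cytokine without a generally accepted receptor, and TSLP is an epithelial alarm signal to dendritic cells and lymphocytes. IL-1 induces many such genes through NF-κB and AP-1, and p38α with its substrate kinase MK2 is known for stabilising cytokine mRNAs that carry AU-rich elements.

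Among the promoters that RefSeq gives for these genes (build GRCh38.p14), which matched 7 of the 10 (not CSF1, CSF3 and LIF), 4 hold a match to the NF-κB consensus within 250 bases before the start. They are shown because they belong to genes whose levels were higher in every IL-1α library than in the unstimulated library of the same genotype, beside CSF2, in which none of the 4 motifs searched was found. Sequences run 5′ to 3′ on the gene's own strand and capitals mark the NF-κB match.

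CSF2, chr5:132073539-132073788, plus strand: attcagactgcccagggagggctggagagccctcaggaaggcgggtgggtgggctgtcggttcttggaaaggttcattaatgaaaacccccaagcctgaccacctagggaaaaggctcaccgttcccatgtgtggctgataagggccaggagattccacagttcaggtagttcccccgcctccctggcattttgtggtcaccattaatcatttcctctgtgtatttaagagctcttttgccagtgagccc

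IL6, chr7:22726950-22727199, plus strand: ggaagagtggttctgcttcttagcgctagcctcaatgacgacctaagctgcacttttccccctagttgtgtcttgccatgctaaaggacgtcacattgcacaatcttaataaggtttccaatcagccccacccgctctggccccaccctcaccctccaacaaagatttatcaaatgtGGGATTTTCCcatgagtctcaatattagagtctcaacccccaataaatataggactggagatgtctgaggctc

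IL23A, chr12:56338634-56338883, plus strand: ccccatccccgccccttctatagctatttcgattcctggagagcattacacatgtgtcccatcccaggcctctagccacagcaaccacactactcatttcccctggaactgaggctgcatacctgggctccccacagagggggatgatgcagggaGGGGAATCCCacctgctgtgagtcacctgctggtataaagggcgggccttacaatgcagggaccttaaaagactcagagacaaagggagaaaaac

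EBI3, chr19:4229273-4229522, plus strand: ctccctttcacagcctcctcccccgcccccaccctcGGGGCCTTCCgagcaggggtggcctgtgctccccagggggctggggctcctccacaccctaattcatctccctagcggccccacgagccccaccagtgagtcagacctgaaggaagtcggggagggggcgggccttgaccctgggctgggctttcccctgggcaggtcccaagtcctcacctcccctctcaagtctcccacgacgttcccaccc

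IL32, chr16:3065153-3065402, plus strand: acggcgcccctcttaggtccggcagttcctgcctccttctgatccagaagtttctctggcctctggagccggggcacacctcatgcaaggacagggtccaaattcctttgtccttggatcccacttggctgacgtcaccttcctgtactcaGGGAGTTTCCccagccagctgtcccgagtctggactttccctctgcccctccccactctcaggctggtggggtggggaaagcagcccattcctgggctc

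The NF-κB match lay at bases -73 to -64 from the start in IL6, -95 to -86 in IL23A, -214 to -205 in EBI3 and -99 to -90 in the first of the 2 IL32 promoters. An AP-1 match (TGANTCA, either strand) was found in IL11, IL23A and EBI3, a cAMP response element (TGACGTCA) in IL32 and a C/EBP match (TTGCNNAA, either strand) in IL6. Of all 35116 promoters in the table, 6.88% held the NF-κB consensus, 6.57% the AP-1 motif, 1.65% the cAMP response element and 9.05% the C/EBP motif. None of the 4 motifs was found in the 3 TSLP promoters or the second IL32 promoter. The NF-κB consensus searched was the string GGGRNYYYCC on either strand, with no mismatch allowed. A match is a string of letters and not a shown binding site. The lack of a match, as in CSF2, does not show that a site is absent.

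AU-rich elements were searched in the 3′ untranslated regions of the matching GENCODE v29 transcripts (GRCh38), which were found for all 10 genes. The 9-base element TTATTTATT, on the transcript's own strand, occurred in 4 of them and in 7.25% of 18174 protein-coding genes matched in the same way. CSF2 held 3 copies in 318 bases, IL11 held 6 in 1618, LIF held 2 in 3204 and IL23A held 1 in 306, counting overlapping copies. One window of 27 bases is shown for each, with the element in capitals.

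CSF2, chr5:132076074-132076100, plus strand: ttaaaatatTTATTTATTTATTTATTt

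LIF, chr22:30240959-30240985, minus strand: tccgggcccTTATTTATTatttaaaca

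IL11, chr19:55365948-55365974, minus strand: agccagatcTTATTTATTTATTTATTt

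IL23A, chr12:56340340-56340366, plus strand: tggggaggaTTATTTATTgtatttata

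Of the shorter pentamer ATTTA, which lies within the longer element, CSF2 held 8 (25.2 per kb), IL6 6 (14.1 per kb), IL23A 4 (13.1 per kb), CSF3 7 (8.2 per kb) and IL11 9 (5.56 per kb), against 2.24 per kb over all matched genes. LIF, with 7 (2.18 per kb), and CSF1, with 4 (1.86 per kb), lay just under that value. EBI3, IL32 and TSLP held 0, in 443, 312 and 57 bases. The TSLP region matched was short beside the median of 836 bases over all matched genes, so its 0 tells little.

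Depth, rebuilt from the values, ran from 16294055 to 34967683 reads. MAPK14 transcript lay at 13.3 to 14.8 RPKM in the 3 wild-type libraries, at 11.3 and 11.0 RPKM in the unstimulated knockout library and knockout IL-1α replicate 1, and at 7.41 RPKM in replicate 2. Since the edited part of the gene is not stated, these whole-gene values do not check the knockout label. The pair of knockout IL-1α libraries also lay farther apart over all genes than the wild-type pair: 4.58% of 12925 genes differed at least 2-fold between them, against 1.44%. All 8 keratinocyte markers exceeded 1 RPKM somewhere. Their summed level was 4472 to 5548 RPKM in the wild-type libraries. In the knockout libraries, the unstimulated one included, it was 2534 to 3314 RPKM, lowest in IL-1α replicate 2. KRT14 ran from 1445 to 1878 RPKM in wild type and from 947 to 1171 RPKM in knockout. KRT17 ran from 1745 to 2245 RPKM and from 267 to 778 RPKM. Under IL-1α, 3 of the 8 markers were by value higher in knockout, and 0 passed in limma. KRT17 (-2.12), CDH1 (-0.73) and KRT14 (-0.63) had an unadjusted limma p below 0.05, all lower in knockout. Such a p, in either direction, was found for 14.9% of all genes. Leukocyte markers (0 of 6 reaching 1 RPKM, summed level 0.645 to 1.23 RPKM) and melanocyte markers (0 of 4) were near 0, LYZ and TYR at 0 in all libraries. Fibroblast markers summed to 0.805 to 2.59 RPKM (2 of 6 reaching 1 RPKM). Of these 2, LUM stood at 0.613 to 1.19 RPKM in wild type and at 0 to 0.016 RPKM in knockout, and COL1A1 overlapped between genotypes. Between genotypes under IL-1α voom called LUM (-5.39, adjusted p = 0.0406) and limma did not (-1.22, adjusted p = 0.191). Of 4 endothelial markers PECAM1 was listed at 0 throughout while CDH5 stood at 1.45 RPKM without and 11.4 and 11.8 RPKM with IL-1α in wild type (adjusted p = 0.19 in limma) and at 2.94 RPKM without and 10.3 and 1.84 RPKM with it in knockout (adjusted p = 1); its part in the results was not tested. In bulk RNA, fewer expressing cells and less RNA per cell cannot be told apart.

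**Figure D1:**
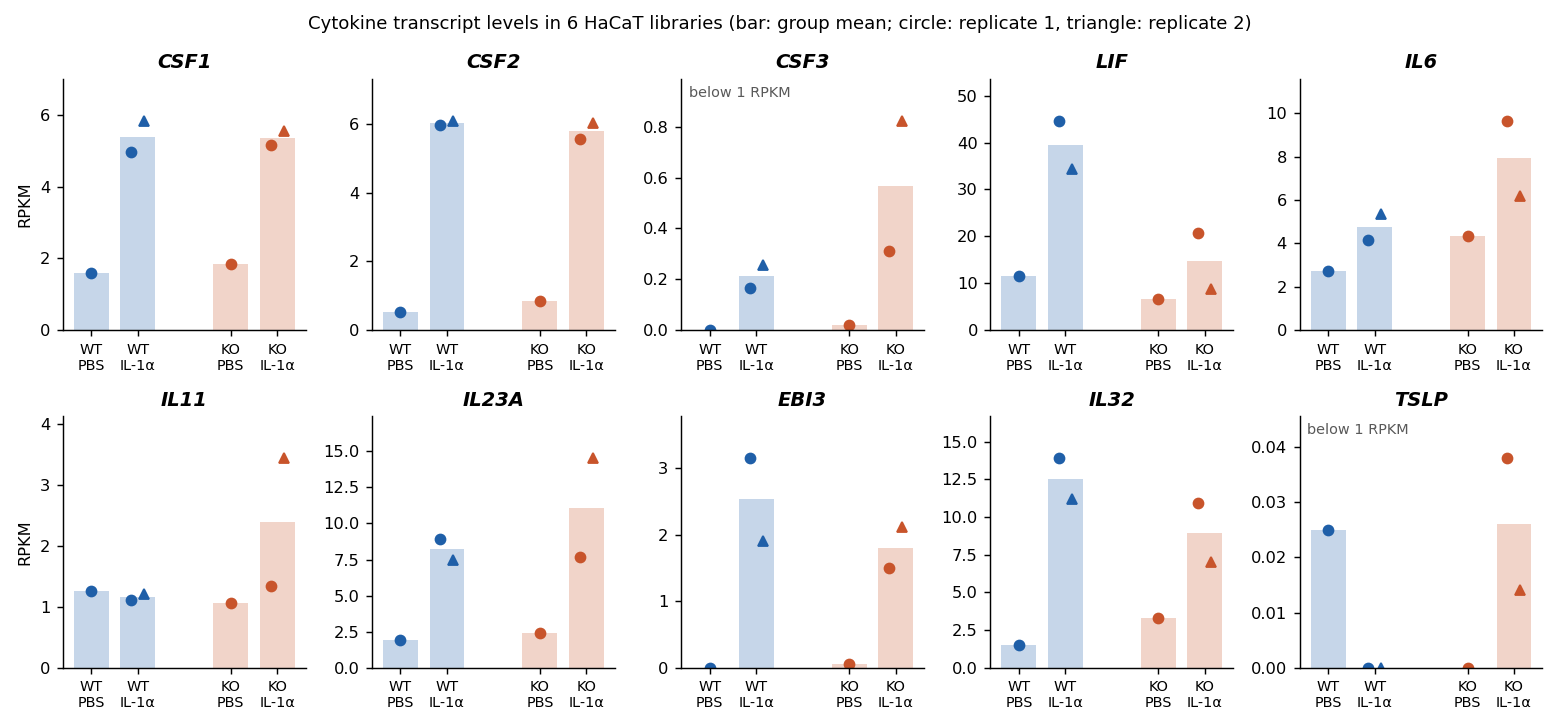
Transcript levels (vertical axes, RPKM, each gene on its own scale from 0) in the 6 libraries, grouped by genotype (WT wild type, KO knockout) and treatment (PBS or IL-1α for 4 h); bars are group means, circles replicate 1 and triangles replicate 2. CSF1 and CSF2 reach nearly the same height in both genotypes, LIF reaches 34.5 and 44.7 RPKM in wild type against 8.74 and 20.8 RPKM in knockout, and CSF3 and TSLP stay under 1 RPKM.

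CSF2, the gene of GM-CSF (chromosome 5, 131409485 to 131411863, hg19), was nearly silent without IL-1α and reached the same level in both genotypes with it. Wild-type cells had 0.537 RPKM when unstimulated and 5.99 and 6.10 RPKM after IL-1α. In knockout cells it went from 0.844 RPKM to 5.57 and 6.04 RPKM. All 4 stimulated libraries lay above both unstimulated ones, and the ranges of the genotypes overlapped under IL-1α. The log2 difference, taken like all others on RPKM + 0.5, was 2.66 ± 0.23 (SE, adjusted p = 0.026) in wild type and 2.23 ± 0.23 (adjusted p = 0.0652) in knockout. Unstimulated cells have 1 library per genotype, so the SE of every response takes its spread from the 2 pairs of IL-1α libraries and assumes that unstimulated libraries vary like them. These levels rest on few reads, 7 and 23 in the unstimulated libraries, so the ratios of reads per depth, 11.3 (exact 95% interval 5.34 to 28.4) and 6.92 (4.5 to 11.1), overlap in their counting error. The limma test of the difference in response gave -0.43 (95% interval -1.23 to 0.37, adjusted p = 0.966). It gave -0.92 (adjusted p = 0.994) with the trend over transcript length removed. Under IL-1α knockout minus wild type was -0.05 on the log2 scale, with a 95% interval from limma of -0.52 to 0.41 (adjusted p = 0.914). A difference of up to that size in either direction remains possible.

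CSF1, which encodes M-CSF, the growth factor of macrophages (chromosome 1, 110453233 to 110473616), already had transcript before stimulation. Wild-type levels were 1.60 RPKM without and 4.96 and 5.84 RPKM with IL-1α, and knockout levels 1.84 RPKM without and 5.17 and 5.55 RPKM with it. Every stimulated library lay above the unstimulated one of its genotype, and the genotypes overlapped. The log2 differences were 1.49 ± 0.24 (adjusted p = 0.0856) and 1.33 ± 0.24 (adjusted p = 0.244), neither of which passed, and the genotypes differed by -0.01 under IL-1α (95% interval -0.48 to 0.47). Reads were ample, at 113 to 698 per library, and the read ratios were 3.39 (2.78 to 4.17) in wild type and 2.94 (2.57 to 3.36) in knockout.

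CSF3, which encodes the neutrophil growth factor G-CSF (chromosome 17, 38171614 to 38174066), stayed below 1 RPKM in every library and did not enter the test. It stood at 0 RPKM in unstimulated and at 0.167 and 0.257 RPKM in stimulated wild-type cells. Knockout cells gave 0.019 RPKM without and 0.311 and 0.823 RPKM with IL-1α. All 4 stimulated libraries lay above both unstimulated ones, the highest being knockout replicate 2. Behind these values stand 0, 4 and 7 reads in wild type and 1, 10 and 36 reads in knockout. The wild-type level after IL-1α was 1.76 times a floor of 3 reads in the unstimulated library, and the exact 95% lower limit of its read ratio was 1.21. In knockout the ratio was 31.1, with an exact 95% interval of 5.32 to 1260. With no filter on low values the log2 differences were 0.51 (adjusted p = 0.597) and 1 (adjusted p = 0.883).

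LIF, the gp130 cytokine leukaemia inhibitory factor (chromosome 22, 30636436 to 30642840), had the highest RPKM of the 10 genes in every library except knockout IL-1α replicate 2, where IL23A exceeded it. In wild type it stood at 11.5 RPKM without IL-1α and at 44.7 and 34.5 RPKM with it. In knockout cells the levels were 6.54 RPKM without and 20.8 and 8.74 RPKM with IL-1α. Both knockout IL-1α libraries lay below both wild-type ones, and replicate 2 lay below even the unstimulated wild-type library. Knockout minus wild type under IL-1α was -1.50 ± 0.39 (SE), with a 95% interval of -2.44 to -0.56, and did not pass over all genes (adjusted p = 0.201). It was -0.90 without knockout replicate 2 and -2.10 without replicate 1. The unstimulated knockout library held 0.569 times the wild-type level (763 wild-type and 907 knockout reads, exact 95% interval 0.516 to 0.627, counting error only). Responses were 1.73 ± 0.47 (adjusted p = 0.17) in wild type and 0.99 ± 0.47 (adjusted p = 1) in knockout, and the test of their difference gave -0.73 (95% interval -2.36 to 0.90, adjusted p = 0.966). That difference was -0.13 without knockout replicate 2.

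IL6, which encodes the acute-phase inducer interleukin-6 (chromosome 7, 22766761 to 22771621), was by value higher in knockout. Its levels were 2.73 RPKM without and 4.15 and 5.34 RPKM with IL-1α in wild type. Knockout cells had 4.33 RPKM without and 9.66 and 6.20 RPKM with IL-1α. The unstimulated knockout library lay within the range of the stimulated wild-type pair, and both stimulated knockout libraries lay above it. The read ratio of knockout to wild type before stimulation was 1.59 (1.16 to 2.19). Under IL-1α the log2 difference was 0.66 ± 0.26 (95% interval 0.03 to 1.29, adjusted p = 0.323), and 0.36 without knockout replicate 1. IL-1α responses were 0.69 (adjusted p = 0.321) in wild type and 0.77 (adjusted p = 1) in knockout.

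IL11, a gp130 cytokine of wound repair and fibrosis (chromosome 19, 55875750 to 55881831), had levels in wild-type cells that lay close together with and without IL-1α. They were 1.26 RPKM without and 1.11 and 1.21 RPKM with IL-1α, and in knockout cells 1.06 RPKM without and 1.35 and 3.44 RPKM with it. Knockout replicate 2 stood apart from the other 5 libraries, at 2.55 times replicate 1 by reads (exact 95% interval 1.95 to 3.38). The log2 response was -0.09 (adjusted p = 0.937) in wild type, where it turned to 0.03 with rescaling of the libraries by their median ratio, and 0.79 (adjusted p = 1) in knockout. Under IL-1α knockout minus wild type was 0.70 (adjusted p = 0.432), and 0.16 without knockout replicate 2.

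IL23A, which encodes the p19 chain of IL-23 (chromosome 12, 56732663 to 56734194), was higher in all stimulated than in all unstimulated libraries. Wild-type levels were 1.90 RPKM without and 8.95 and 7.50 RPKM with IL-1α. Knockout levels were 2.40 RPKM without and 7.67 and 14.5 RPKM with IL-1α. The log2 responses, 1.85 ± 0.38 (adjusted p = 0.128) and 1.93 ± 0.38 (adjusted p = 0.317), were of similar size and did not pass. Their difference, 0.08, had a 95% interval of -1.22 to 1.38 and became -0.36 without knockout replicate 2. The partner chain IL12B, with which p19 forms IL-23, lay between 0 and 0.059 RPKM in all libraries.

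EBI3, whose product pairs with IL-27p28 (chromosome 19, 4229540 to 4237524), was absent or nearly so before stimulation. Unstimulated wild-type cells gave 0 reads and unstimulated knockout cells 2 reads, 0.051 RPKM. IL-1α libraries gave 3.15 and 1.91 RPKM in wild type and 1.50 and 2.11 RPKM in knockout. The groups overlapped between genotypes. The wild-type level was 15.7 times the floor of 3 reads, and the exact 95% lower limit of its read ratio was 12.5. In knockout the ratio was 36.6 (exact 95% interval 9.88 to 306). The log2 differences, 2.57 (adjusted p = 0.0715) and 2.05 (adjusted p = 0.278), depend on the pseudocount and ran from 1.80 to 6.54 and from 1.41 to 4.85 over 12 other settings. IL27, the gene of that IL-27p28 chain, lay between 0 and 0.052 RPKM.

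IL32 (chromosome 16, 3115313 to 3119668) showed, on the log2(RPKM + 0.5) scale, the widest gap by value between the genotypes' responses; with voom that of EBI3 was wider (-1.69 against -1.62 for IL32). Wild-type levels went from 1.51 RPKM to 13.9 and 11.2 RPKM. In knockout cells IL32 started higher, at 3.27 RPKM, and reached 10.9 and 7.02 RPKM. All stimulated libraries lay above both unstimulated ones, and both stimulated knockout libraries lay below both wild-type ones. IL32 rose in wild type by 2.69 ± 0.31 (SE, adjusted p = 0.0491), while in knockout the difference was 1.30 ± 0.31 (adjusted p = 0.606). The test of the difference gave -1.39 ± 0.44 (95% interval -2.46 to -0.33, adjusted p = 0.966), so it did not pass over all genes; it ran from -1.84 to -1.09 over 12 other settings. Before stimulation the knockout library held 2.16 times the wild-type reads per depth (23 and 104 reads, exact 95% interval 1.37 to 3.56). Under IL-1α the genotypes differed by -0.49 (adjusted p = 0.416).

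TSLP (chromosome 5, 110409012 to 110413722) was at or near 0 throughout. Wild-type cells gave 1 read without and 0 reads with IL-1α, and knockout cells 0 reads without and 2 and 1 reads with it. Its highest value was 0.038 RPKM, and a floor of 3 reads equals 0.0745 RPKM in the unstimulated wild-type and 0.0356 RPKM in the unstimulated knockout library. No change was detectable at this depth.

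**Figure D2:**
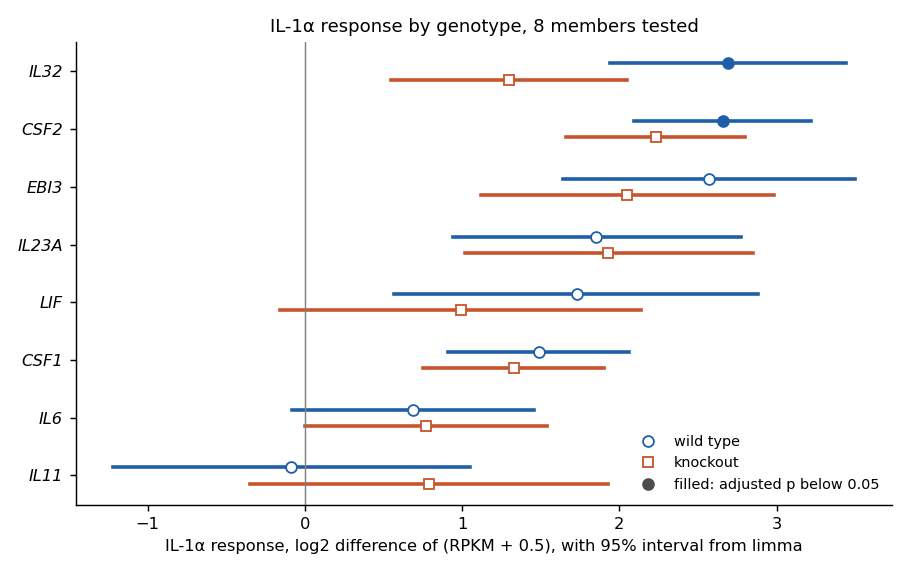
IL-1α response (horizontal axis, log2 difference of RPKM + 0.5 between the 2 stimulated libraries and the unstimulated one, with the 95% interval from limma) of the 8 genes tested, in wild type (blue circles) and knockout (orange squares); filled symbols passed at an adjusted p below 0.05. CSF2 (2.66) and IL32 (2.69) passed in wild type, and IL32 shows the widest gap between genotypes on this scale (2.69 and 1.30).

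Counted over the group, 8 of the 10 genes reached 1 RPKM in at least 1 library and were tested. CSF2 and EBI3 reached it in IL-1α libraries alone, so their differences were partly fixed by that filter, and the counts that follow describe the tested genes and give no support beyond each gene's own test. In wild-type cells CSF2 and IL32 passed, against 0.201% of 12925 genes called higher, and 6 (those with CSF1, LIF, IL23A and EBI3) had an unadjusted p below 0.05 in the higher direction, against 4.69%. In 7 of 8, all but IL11, both IL-1α libraries lay above the unstimulated one, against 27.5% of all genes. The median log2 difference was 1.79, and that of all genes -0.14, which rescaling by median ratios brought to 0.00. Both calls were lost without wild-type IL-1α replicate 1 (CSF2 2.67, adjusted p = 0.438; IL32 2.54, adjusted p = 0.438) or replicate 2 (2.65 and 2.84, each with adjusted p = 0.72), fits that leave 1 replicated pair to measure the spread. They were also lost with no filter on low values (adjusted p = 0.105 and 0.206) and with voom (0.0981 and 0.11). IL32 alone also missed the threshold with a pseudocount of 0.1 (adjusted p = 0.0553) or 1 (0.0509) and with no variance trend (0.0583).

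In knockout cells 0 of 8 passed in limma, against 0.0696% of all genes called higher, and voom gave 0 too. An unadjusted p below 0.05 in the higher direction was found for 5 (CSF1, CSF2, IL23A, EBI3 and IL32), against 2.53%. All 8 were above the unstimulated level in both IL-1α libraries, against 27.8% of genes, with a median of 1.31 beside -0.02 for all genes. The responses of wild type and knockout did not differ past the threshold for any of the 12925 genes tested: limma called 0, 567 had an unadjusted p below 0.05, and voom called 0. With no filter on low values limma called 87 genes, 0 of them among the 10 cytokines. IL32 was the 1 tested cytokine with an unadjusted p below 0.05, as a smaller response in knockout, against 0.627% of genes in that direction.

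Under IL-1α, where the question is whether loss of p38α changed the level reached, 0 of the 8 passed in limma or voom, against 0.0464% of all genes called higher and 0.108% called lower. LIF had an unadjusted p below 0.05 as lower in knockout (4.93% of all genes) and IL6 as higher (9.97%). LIF and IL32 lay below wild type in both knockout libraries, which 16.3% of all genes did, and IL6 and IL11 lay above, which 32.4% did. With 2 of 8 in each direction these shares are close to the background, and the median over the 8 was -0.03 beside 0.09 for all genes. The 4 genes with the 9-base AU-rich element had values of both signs. They were CSF2 -0.05 (95% interval -0.52 to 0.41), LIF -1.50 (-2.44 to -0.56), IL11 0.70 (-0.23 to 1.63) and IL23A 0.35 (-0.4 to 1.1). Of these 4 intervals only that of LIF leaves out 0. IL6, with 0 copies of the 9-base element but 14.1 ATTTA per kb, had 0.66 (0.03 to 1.29). That interval leaves out 0 in the other direction. A part of AU-rich elements in these differences was not tested. The comparisons of genotype share the stimulated libraries with those of the response.

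**Figure D3:**
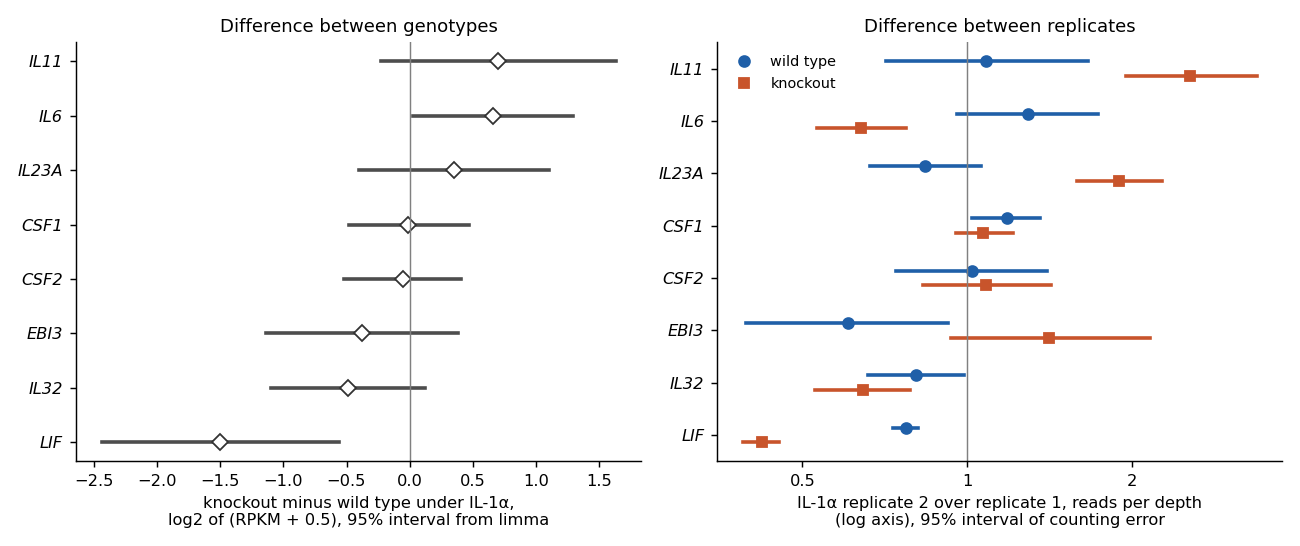
Left, knockout minus wild type under IL-1α (log2 of RPKM + 0.5, 95% interval from limma; none passed at an adjusted p below 0.05). Right, IL-1α replicate 2 over replicate 1 in each genotype (ratio of reads per depth, log axis, exact 95% interval of counting error): the knockout pair differs for LIF (0.421), IL11 (2.55) and IL23A (1.89), while CSF1 and CSF2 lie near 1 in both genotypes.

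The stimulated knockout libraries differed on several of these genes by more than counting error, which leaves out the spread between separate libraries. LIF in replicate 2 was 0.421 times its level in replicate 1 (0.389 to 0.454), IL6 0.641 times (0.532 to 0.772) and IL32 0.644 times (0.527 to 0.786). IL11 was 2.55 times and IL23A 1.89 times (1.59 to 2.27) as high, and CSF3 2.65 times (1.29 to 5.98). Over all tested genes, 2.79% lay farther apart than LIF in this pair on the log2 scale, 3.62% farther than IL11, 6.24% farther than IL23A, 14.8% farther than IL6 and 14.9% farther than IL32. Replicate 2 was lower for some cytokines and higher for others, while CSF1 and CSF2 agreed within counting error. LIF and IL11 lay at least 2-fold apart on the log2 scale; in wild type 0 of the 8 did, and the LIF ratio there was 0.772 (0.731 to 0.814).

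Without stimulation, where each genotype has 1 library, 0 of the 8 lay at least 2-fold apart on the log2(RPKM + 0.5) scale with 1 RPKM in the higher library, against 2.42% of genes higher and 4.11% lower in knockout. IL32 came nearest, at 0.91 on the log2 scale, and exceeded 1 with a pseudocount of 0.1 (1.06) and with the length trend removed (1.32). LIF followed at -0.77 and IL6 at 0.58. A limma test that takes its spread from the stimulated pairs, added after seeing the data, called 0 of the 12925 genes, with 12.2% at an unadjusted p below 0.05. IL32 was the 1 tested cytokine among these (95% interval 0.04 to 1.77, adjusted p = 0.393), and LIF (-2.10 to 0.56, adjusted p = 0.569) and IL6 (-0.31 to 1.47, adjusted p = 0.531) had intervals that include 0. By reads alone CSF1 (read ratio 1.15, 0.918 to 1.44), IL11 (0.842, 0.588 to 1.22) and IL23A (1.26, 0.836 to 1.94) had intervals that include 1.

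Of 13 receptor chains for these cytokines, 4 reached 1 RPKM: IL6ST, IL7R, IL27RA and IL6R. CSF2RA and CRLF2, annotated at 2 places and listed at 0, were not measured, and the chains specific to M-CSF, G-CSF and IL-23 (CSF1R, CSF3R, IL23R) stayed at or below 0.021 RPKM. In limma 0 of the 4 passed in any of the 4 comparisons; at an unadjusted p below 0.05 there were 2 in wild type, 1 in knockout, 1 between genotypes under IL-1α and 0 for the difference in response. The shares of all genes at that p, in either direction, were 18.1%, 3.58%, 14.9% and 4.39% in the same order. IL7R, the chain that completes the TSLP receptor, went from 4.93 to 16.6 and 23.1 RPKM in wild type (1.89, adjusted p = 0.0621) and from 9.52 to 23.4 and 20.8 RPKM in knockout (1.17, adjusted p = 0.453). IL6ST, the gp130 chain, went from 7.58 to 13.3 and 19.4 RPKM and from 13.2 to 18.8 and 22.5 RPKM. IL27RA, the IL-27 receptor, stood at 1.60 and 1.33 RPKM in stimulated wild-type and 5.07 and 5.36 RPKM in stimulated knockout cells (1.54, adjusted p = 0.0761), and at 1.99 and 3.91 RPKM without IL-1α. It was the 1 receptor gene that voom called (1.84, adjusted p = 0.0382).

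Of 15 other ligands of the same families 5 reached 1 RPKM, and 0 passed in limma or voom in any comparison, with 1 at an unadjusted p below 0.05 in the wild-type response and 1 between genotypes under IL-1α, shares close to those of all genes (18.1% and 14.9%). The most abundant were KITLG, the stem cell factor, at 10.0 to 15.0 RPKM, and the gp130 cytokine CLCF1. CLCF1 levels were 10.8 RPKM without and 17.9 and 14.0 RPKM with IL-1α in wild-type cells, and 7.56, 8.33 and 9.76 RPKM in the same order in knockout (-0.78 under IL-1α, adjusted p = 0.195). The order of genotypes was thus that of LIF, with no overlap under IL-1α. IL3, IL5 and IL31 were listed at 0 in all libraries.

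Of 10 JAK and STAT genes that carry these signals, 8 were tested and 0 passed in limma or voom, with 3, 1, 1 and 0 at an unadjusted p below 0.05 in the wild-type response, the knockout response, the genotypes under IL-1α and the difference in response (18.1%, 3.58%, 14.9% and 4.39% of all genes). STAT5A reached 1 RPKM in IL-1α libraries alone, so its response, counted among these, was partly fixed by the filter. STAT5A, a transducer of GM-CSF and TSLP signals, stood at 0.160 RPKM without and 2.70 and 3.24 RPKM with IL-1α in wild type (2.39, adjusted p = 0.0609). In knockout it went from 0.077 to 1.90 and 2.30 RPKM (2.16, adjusted p = 0.113). STAT6 and STAT3 were the most abundant, at 38.8 to 65.2 and 27.3 to 60.0 RPKM, and STAT3, the main target of gp130, was lowest in knockout IL-1α replicate 2.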

How the data were processed

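RNA-seq of 6 HaCaT libraries was analysed from the table the authors deposited, which holds RPKM (columns also named FPKM) for 27945 genes; per the file headers it was made with HOMER's analyzeRepeats on hg19, counting exons, with 1 line per gene. bcl2fastq (2.20.0.422) and STAR are named in the submitters' processing notes; strand setting and other versions are not given in the sources used here, so reads of overlapping antisense transcripts may be included. Coordinates of genes are those of the table (hg19); sequences are on GRCh38.

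Depth was the number of reads that turned values of 0.02 to 1 RPKM into whole counts (tolerance 0.1 read, values whose rounding is worth up to 0.05 read), which held for 100% of them; rebuilt reads served for counting intervals and voom. Intervals and floors (3 reads in the unstimulated library) cover counting error only. The 12925 genes reaching 1 RPKM in any library were put on the log2(RPKM + 0.5) scale and fitted with limma (3.58.1, under R 4.3.3), each group having its own mean. Variances were moderated along a trend with abundance (2 residual and 4.2 prior degrees of freedom), and p-values were adjusted by Benjamini-Hochberg over all of these genes, with a threshold of 0.05. A log2 difference on this scale understates the change of low genes. Results were recomputed under 12 other settings, and the fit was tested on simulated data. Named were all 10 genes, MAPK14, the passing and 2 most abundant genes of each list (cell markers mostly by their sums) and, for each tested gene, the 2 of most similar profile; IL12B, IL27, IL27RA, STAT5A, CDH5 and other list genes named beside these were chosen after their values were seen. The genes and lists were chosen with earlier results of these data known.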

Additional observations from a re-analysis of the deposited data

Results flagged for a closer look

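IL11 lay on opposite sides of its unstimulated level in the 2 genotypes, by values that are small in wild type: both wild-type IL-1α libraries lay below the unstimulated one (1.11 and 1.21 against 1.26 RPKM) and both knockout IL-1α libraries above it (1.35 and 3.44 against 1.06 RPKM). Neither response passed in limma (-0.09, adjusted p = 0.937, and 0.79, adjusted p = 1), and the sign in wild type turned under 2 other settings. The difference in response was 0.88 on the log2 scale (95% interval -0.73 to 2.48), and limma's test of it did not pass (adjusted p = 0.966). It was 0.33 without knockout replicate 2.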

How the results depend on the processing

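The wild-type response called 28 genes, and 49 with no filter, 53 with median-ratio rescaling, 11 with voom, 101 with the length trend removed and 0 to 70 leaving out 1 IL-1α library. Of the cytokines 2 were called there, and 1 with a pseudocount of 0.1, 1 with a pseudocount of 1, 1 with no variance trend, 0 with no filter, 0 with voom, 4 with the length trend removed and 0 to 2 leaving out 1 library. In knockout 9 genes were called, and 5 with a pseudocount of 1, 65 with no filter, 4 with no trend, 2 with voom, 30 with the length trend removed (19 higher, 11 lower) and 0 without any 1 IL-1α library; the length correction called 1 cytokine, CSF2 (2.28, adjusted p = 0.0422). Between genotypes under IL-1α the count was 20, and 7 with a pseudocount of 0.1, 0 with no filter, 0 with no trend, 55 with voom, 40 with the length trend removed and 0 without any 1 IL-1α library. For the difference in response 0 became 87 with no filter. Without stimulation 1 cytokine, IL32, passed 2-fold with a pseudocount of 0.1 and 1 with the length trend removed; 844 genes passed 2-fold there and 0 passed limma's test, which was added after seeing the data. The causes were not tested.

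Using the replicate number as a block gave 17 genes for the knockout response and 58 between genotypes under IL-1α. It changed no call among the cytokines. LIF between genotypes under IL-1α stayed at -1.50, and its adjusted p in limma went from 0.201 to 0.0722. Same-numbered libraries did not deviate together (correlation 0.009 across genes). The labels do not say whether the numbers mark a shared day or culture, and this correlation cannot decide it.

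Values near 0 changed sign. The IL11 response in wild type (-0.09) became 0.03 with rescaling and 0.09 with the length trend removed. CSF1 between genotypes under IL-1α (-0.01) ran from -0.11 to 0.10 leaving out 1 library, and IL23A (0.35) from -0.09 to 0.79. The differences in response of IL6 and IL23A (each 0.08) became -0.03 and -0.04 with rescaling and -0.29 and -0.33 with the length trend removed, and ran from -0.22 to 0.38 and from -0.36 to 0.52 leaving out 1 library. Low read numbers limit CSF3, TSLP, EBI3 and unstimulated CSF2.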

Other observations

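For each tested cytokine the genes of most similar profile were sought among 8287 genes reaching 5 RPKM, as the root-mean-square distance of centred log2(RPKM + 0.5) values over the 6 libraries. These are descriptions of 6 points shared with depth and treatment. CSF2 lay nearest to SOD2, the mitochondrial superoxide dismutase (distance 0.223), and BIRC3, an inhibitor of apoptosis (0.294). IL23A lay nearest to NFKBIA, which encodes the NF-κB inhibitor IκBα (0.174; 29.9, 120 and 95.1 RPKM in wild type and 28.0, 95.5 and 140 RPKM in knockout), and to TMEFF1 (0.191). EBI3 had WNT4 (0.278) and the RNase gene ZC3H12A (0.281) as neighbours.

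LIF lay 0.136 from OAS1, which encodes an RNA-sensing synthetase (wild type 13.6, 46.7 and 37.3 RPKM, knockout 9.03, 24.3 and 11.7 RPKM, unstimulated first). Its next neighbour was MARCKSL1 (0.292). IL32 lay nearest to XAF1 (0.223) and CMPK2 (0.276). CSF1 had IFNGR1, a chain of the interferon-γ receptor (0.116), and ICOSLG (0.124), and IL6 had ANKRD22 (0.144) and SLC9A7 (0.17). IL11 shared its single high value in knockout IL-1α replicate 2 with STAMBPL1 (0.0802; 14.1 RPKM there and 6.12 to 6.70 RPKM elsewhere) and HAUS3 (0.106). Within the group CSF2 and EBI3 were the closest pair (0.25), and LIF and IL11 the farthest apart (1.23).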
